A study of Homo sapiens with 12 samples.

Results

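The metallothionein genes MT2A, MT1A, MT1E, MT1F, MT1G, MT1M and MT1X, the zinc-sensing transcription factor gene MTF1, the zinc exporter gene SLC30A1 and the zinc importer gene SLC39A10 were followed in OVCAR8 cells exposed to EC359, to trametinib or to the pair. These 10 of the 26485 genes in the files were chosen by symbol, with their counts in these same 12 libraries across the 4 treatments already in view. All values for them below are therefore a description, given with the spread between libraries and without printed p-values. Where one of them is said to be called or to pass, an adjusted p-value only sorted it beside all genes tested. Such a call is no independent test of these genes. OVCAR8 is an established human ovarian cancer cell line, and one of the Ras-mutant models of the study. The cells received vehicle (control), 150 nM EC359, 100 nM trametinib, or 150 nM EC359 together with 100 nM trametinib (combination), each for 7 h, in medium with serum. EC359 is an inhibitor of the leukemia inhibitory factor receptor (LIFR) and trametinib an inhibitor of the kinase MEK. Polyadenylated RNA was sequenced in 3 libraries per group, and the labels do not say whether these came from separate cultures, so the spread between them may be technical. The libraries held 24790392 to 32467283 estimated counts.

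Metallothioneins are small cysteine-rich proteins that bind zinc and copper, and their genes lie side by side on chromosome 16. When free zinc in the cell rises, the zinc-finger protein MTF1 binds short DNA words called metal response elements near the start of these genes and of SLC30A1, and their transcription increases. SLC30A1 moves zinc out across the plasma membrane, whereas SLC39A10 brings zinc in, and SLC39A10 is known as a gene whose transcript falls when zinc is in excess. Metallothionein genes also answer to glucocorticoids and to oxidative stress.

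The 7 metallothionein genes spanned 75.6 kb of chromosome 16 in the hg38 annotation of the files, from base 56608566 to base 56684196. MT2A lay at chr16:56608566-56609497, MT1E at chr16:56625673-56627113, MT1M at chr16:56632622-56633986, MT1A at chr16:56638666-56640088, MT1F at chr16:56657943-56659303, MT1G at chr16:56666735-56668065 and MT1X at chr16:56682470-56684196. Each had 3 exons in this annotation, with 397 to 507 bases of exon in all, and MT1G was the one on the minus strand. MTF1 lay at chr1:37809567-37859620 and SLC30A1 at chr1:211575039-211578757, both on the minus strand, and SLC39A10 at chr2:195656808-195737702 on the plus strand.

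The stretches of 250 bases before the annotated starts of MT2A, MT1X and SLC30A1 are shown because the metal response element is the sequence through which MTF1 acts on these genes. They are read 5′ to 3′ along the gene from RefSeq promoter windows (build GRCh38.p14), which exist in the table used for 5 of the 10 genes, namely MT2A, MT1X, MTF1, SLC30A1 and SLC39A10. Capitals mark each match to TGCACNC or TGCGCNC on either strand. MT2A is at chr16:56608334-56608583 (plus strand), MT1X at chr16:56682220-56682469 (plus strand) and SLC30A1 at chr1:211579162-211579411 (minus strand). The start that RefSeq gives SLC30A1 lies upstream of the one in the files.
MT2A: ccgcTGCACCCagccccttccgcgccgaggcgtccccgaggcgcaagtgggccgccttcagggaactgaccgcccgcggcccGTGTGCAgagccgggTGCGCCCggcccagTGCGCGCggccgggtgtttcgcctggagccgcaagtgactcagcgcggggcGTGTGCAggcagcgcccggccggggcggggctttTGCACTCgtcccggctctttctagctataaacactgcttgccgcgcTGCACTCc
MT1X: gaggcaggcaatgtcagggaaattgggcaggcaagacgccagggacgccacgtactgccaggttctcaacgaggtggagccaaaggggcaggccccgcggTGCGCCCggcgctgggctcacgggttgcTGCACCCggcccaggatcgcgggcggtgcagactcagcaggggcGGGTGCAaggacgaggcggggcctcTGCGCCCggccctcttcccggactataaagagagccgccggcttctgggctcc
SLC30A1: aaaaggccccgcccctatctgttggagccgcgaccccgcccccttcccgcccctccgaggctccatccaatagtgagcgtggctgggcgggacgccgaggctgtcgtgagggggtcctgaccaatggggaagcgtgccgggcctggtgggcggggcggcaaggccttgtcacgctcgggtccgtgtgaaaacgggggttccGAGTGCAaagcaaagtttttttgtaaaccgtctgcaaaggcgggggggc

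Over the whole window of 300 bases, which runs from 250 bases before the start to 50 after it, MT2A held 8 matches and MT1X held 4. SLC30A1 held 2, with first bases 49 bases before and 25 bases after the start, both on the strand opposite to the gene. The window of MTF1 held 0. Of the windows at the 2 annotated starts of SLC39A10, the first held 0 and the second held 1, after the start, within cggagaggagaTGCACACggcactcgag (chr2:195657248-195657275, plus strand). Of 35097 RefSeq windows of this length, 29.5% held at least 1 match, 8.6% at least 2, 0.598% at least 4 and 0.0199% at least 8. Neighbouring matches may overlap in part, and each is a match of letters, with no measurement of binding. The words were chosen after the expression values were known. The map of matches gives the places of those to the metal response element.

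**Figure D1:**
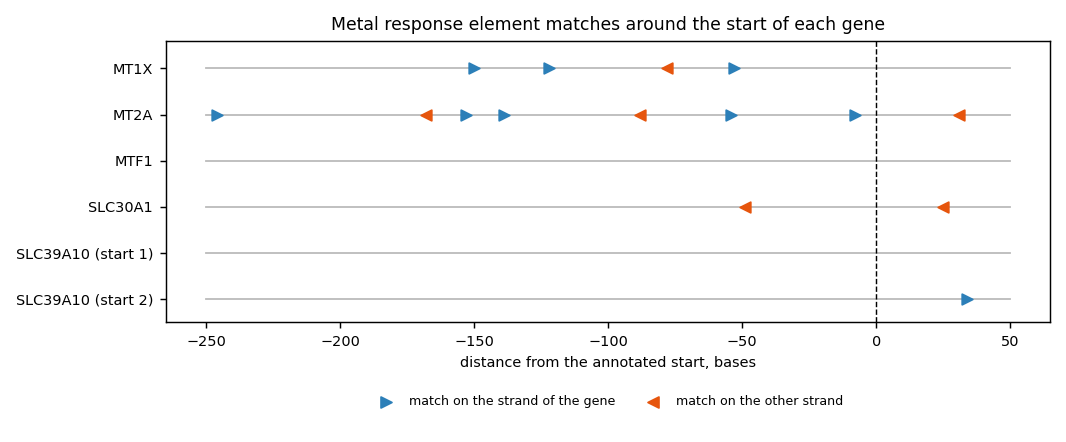
Places of metal response element matches (triangles, pointing right for the strand of the gene and left for the other strand) by distance in bases from the annotated start, for the 6 RefSeq windows of 5 genes. MT2A has 8 matches and MT1X 4, most of them before the start, against 2 for SLC30A1, 0 for MTF1 and 0 and 1 for the starts of SLC39A10.

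Compared to control, metallothionein transcripts were a little higher with EC359, lower with trametinib, and highest with both agents. Summed over the 7 genes, expression was 557 ± 1.79 CPM (TMM-scaled counts at equal library size, mean ± SD, n = 3) in control, 672 ± 3.60 CPM with EC359, 440 ± 3.85 CPM with trametinib and 918 ± 22.7 CPM in the combination group. The order trametinib, control, EC359, combination held without overlap between the libraries of neighbouring groups. The log2 change of the sum from control was 0.27 with EC359 (SE 0.02), -0.34 with trametinib (SE 0.02) and 0.72 in the combination (SE 0.02), from edgeR's quasi-likelihood fit. In bulk RNA, fewer expressing cells and less RNA per cell cannot be told apart.

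Most of that transcript was MT2A, the metallothionein expressed in nearly all human tissues. Its control libraries held 403, 396 and 399.9 CPM, the EC359 libraries 490.3, 490.1 and 485 CPM, the trametinib libraries 309, 319.6 and 319.7 CPM, and the combination libraries 495, 529 and 532 CPM. No library of one group fell within the range of another. The log2 change from control was 0.29 (SE 0.02) with EC359, -0.34 (SE 0.02) with trametinib and 0.38 (SE 0.02) in the combination, so the combination libraries stood only 1.06-fold above those with EC359 alone.

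MT1E, the second most abundant member, departed from MT2A in the combination. It measured 115, 122 and 119 CPM in control, 136, 126 and 133 CPM with EC359, 97.9, 89.7 and 94.6 CPM with trametinib, and 268, 264 and 263 CPM in the combination. The combination libraries were 2.23-fold above control (log2 change 1.16, SE 0.03), where EC359 alone gave 1.11-fold and trametinib alone a log2 change of -0.34 (SE 0.03). With scaling by total counts only, the EC359 log2 change of 0.15 became 0.01, in a setting where the median of all genes was -0.15.

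MT1X followed the same order with a larger span. Its libraries held 31.0, 34.9 and 33.8 CPM in control, 43.3, 47.3 and 46.1 CPM with EC359, 26.7, 25.7 and 26.0 CPM with trametinib, and 105, 111 and 114 CPM in the combination. All 4 groups were apart, and the combination was 3.31-fold above control (log2 change 1.73, SE 0.04). With EC359 the log2 change was 0.46 (SE 0.05) and with trametinib it was -0.35 (SE 0.05).

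The largest relative change of a metallothionein member was that of MT1M, which was scarce in the other 3 groups. Control libraries held 2.78, 4.09 and 2.91 CPM, EC359 libraries 3.89, 3.32 and 3.64 CPM, trametinib libraries 2.58, 2.17 and 3.24 CPM, and combination libraries 19.0, 18.6 and 20.6 CPM. Only the combination stood apart, at 5.93-fold above control (log2 change 2.57, SE 0.13), while both single agents overlapped control (log2 changes of 0.14, SE 0.14, and -0.29, SE 0.14). In estimated counts this was 78 to 129 per control library against 476.17 to 548 per combination library.

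MT1F, at a still lower level, showed the same shape with more scatter. It measured 1.86, 1.34 and 0.912 CPM in control, 1.01, 1.48 and 1.97 CPM with EC359, 1.40, 0.722 and 0.584 CPM with trametinib, and 4.63, 4.60 and 3.23 CPM in the combination. The first 3 groups overlapped one another and the combination lay above all of them (log2 change from control 1.62, SE 0.30). The trametinib change of -0.57 (SE 0.33) rested on 18 to 45 counts per library, and became -1.05 without trametinib replicate 1.

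MT1A and MT1G were near the limit of detection. MT1A held 4 to 29.67 counts per library, with means of 0.431 ± 0.245 CPM in control, 0.744 ± 0.124 CPM with EC359, 0.434 ± 0.266 CPM with trametinib and 0.813 ± 0.262 CPM in the combination (SD, n = 3 each). Its combination and control libraries overlapped, at a log2 change of 0.94 (SE 0.39), which moved between 0.63 and 1.48 as single libraries were left out. It passed 2-fold without control replicate 1, combination replicate 1 or combination replicate 2, and did not pass the adjusted p without control replicate 2 or 3 or combination replicate 3. MT1G held 0 to 10 counts per library and did not pass the filter on low counts, and 4 of its 12 libraries were at 0, where a count of 0 allows up to 0.0958 to 0.121 CPM. No change is given for it.

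**Figure D2:**
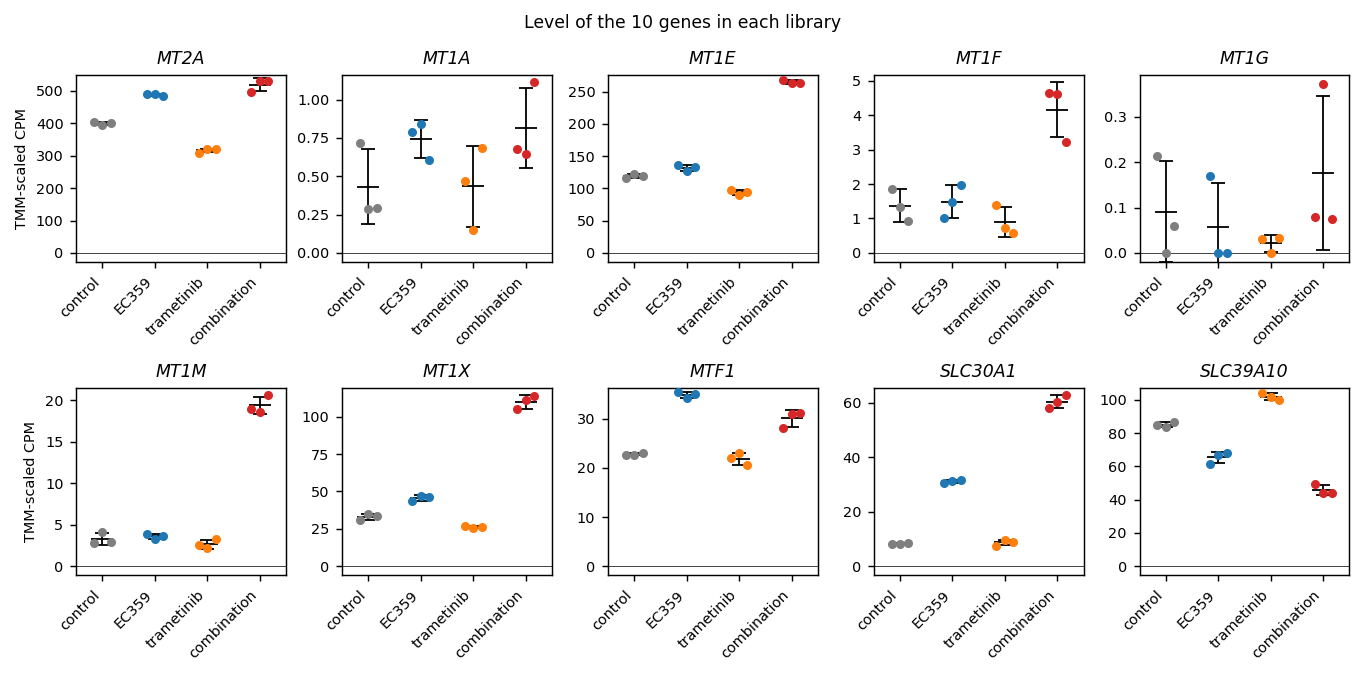
Level of each of the 10 genes (TMM-scaled CPM, linear axes that differ between panels) in the 3 libraries of each group, with points for libraries and bars for mean ± SD. MT1E, MT1M, MT1X and SLC30A1 are highest in the combination and SLC39A10 is lowest there, while MTF1 is highest with EC359 and MT1A and MT1G scatter at low levels.

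The make-up of the metallothionein pool differed in the combination group. MT2A accounted for 71.8% ± 0.857 of the summed CPM in control, 72.7% ± 0.438 with EC359 and 71.8% ± 1.21 with trametinib, but for 56.5% ± 0.842 in the combination (SD, n = 3 each). MT1E made up 21.4% ± 0.520 of the sum in control and 28.9% ± 0.994 in the combination, MT1X 5.97% ± 0.341 and 11.99% ± 0.228, and MT1M 0.586% ± 0.127 and 2.11% ± 0.103. No combination library overlapped the control libraries for any of these 4 shares. Without MT2A, the sum was 157 ± 5.27 CPM in control, 183 ± 3.45 CPM with EC359, 124 ± 5.39 CPM with trametinib and 399.7 ± 2.59 CPM in the combination. Per kilobase of exon, which allows genes to be compared, mean control levels were 954 CPM for MT2A, 235 for MT1E, 82.3 for MT1X, 7.42 for MT1M, 2.84 for MT1F, 1.09 for MT1A and 0.225 for MT1G. In the combination the same order held, at 1238, 523, 273, 44.1, 8.60, 2.05 and 0.434 CPM per kilobase.

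**Figure D3:**
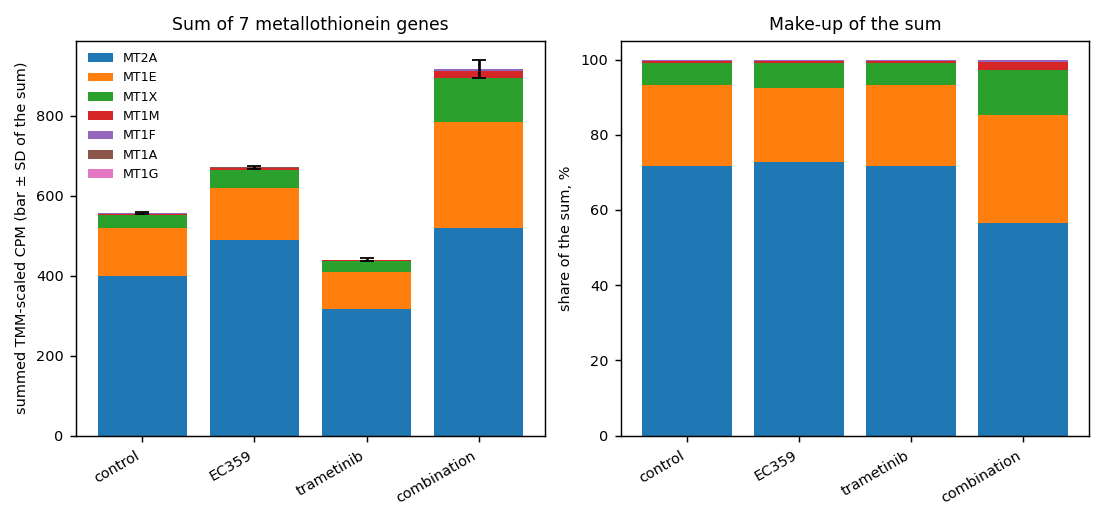
Left, summed TMM-scaled CPM of the 7 metallothionein genes by group, stacked by gene with group means (error bar, SD of the sum over 3 libraries). Right, the mean share of each gene in that sum, in %, where MT2A falls from 71.8% in control to 56.5% in the combination as MT1E, MT1X and MT1M take larger shares.

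SLC30A1 was the only one of the 9 tested genes called past 2-fold with EC359 alone, and was higher again with both agents. Its libraries held 8.25, 8.31 and 8.54 CPM in control, 30.4, 31.3 and 31.6 CPM with EC359, 7.58, 9.65 and 8.95 CPM with trametinib, and 57.8, 60.4 and 62.6 CPM in the combination. Control and trametinib libraries overlapped, and the EC359 and combination libraries each stood apart from the other groups. The change from control was 3.71-fold with EC359 (log2 1.89, SE 0.07) and 7.20-fold in the combination (log2 2.85, SE 0.06), against a log2 change of 0.05 (SE 0.08) with trametinib.

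SLC39A10 changed in the opposite direction. It measured 84.9, 83.4 and 86.5 CPM in control, 61.7, 67.1 and 67.8 CPM with EC359, 104, 102 and 99.8 CPM with trametinib, and 49.5, 44.0 and 44.2 CPM in the combination. The order combination, EC359, control, trametinib held without overlap between neighbouring groups. The log2 change from control was -0.37 (SE 0.04) with EC359, 0.26 (SE 0.04) with trametinib and -0.89 (SE 0.04) in the combination, where the level was 1.85-fold lower.

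MTF1, the sensor itself, was highest with EC359 alone rather than with both agents. It held 22.6, 22.7 and 23.0 CPM in control, 35.5, 34.2 and 35.1 CPM with EC359, 22.1, 23.0 and 20.6 CPM with trametinib, and 28.1, 31.0 and 31.3 CPM in the combination. Trametinib libraries overlapped control, and the combination lay between control and EC359. The log2 change from control was 0.62 (SE 0.05) with EC359, -0.06 (SE 0.06) with trametinib and 0.40 (SE 0.06) in the combination, and the combination was lower than EC359 by a log2 change of -0.21 (SE 0.05).

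Per kilobase, control levels of the other 3 genes were 15.4 CPM for SLC39A10, 4.14 for SLC30A1 and 2.85 for MTF1. With EC359 they were 11.9, 15.4 and 4.38 CPM per kilobase and in the combination 8.31, 29.9 and 3.78, so that SLC30A1 lay above SLC39A10 in both of these groups.

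**Figure D4:**
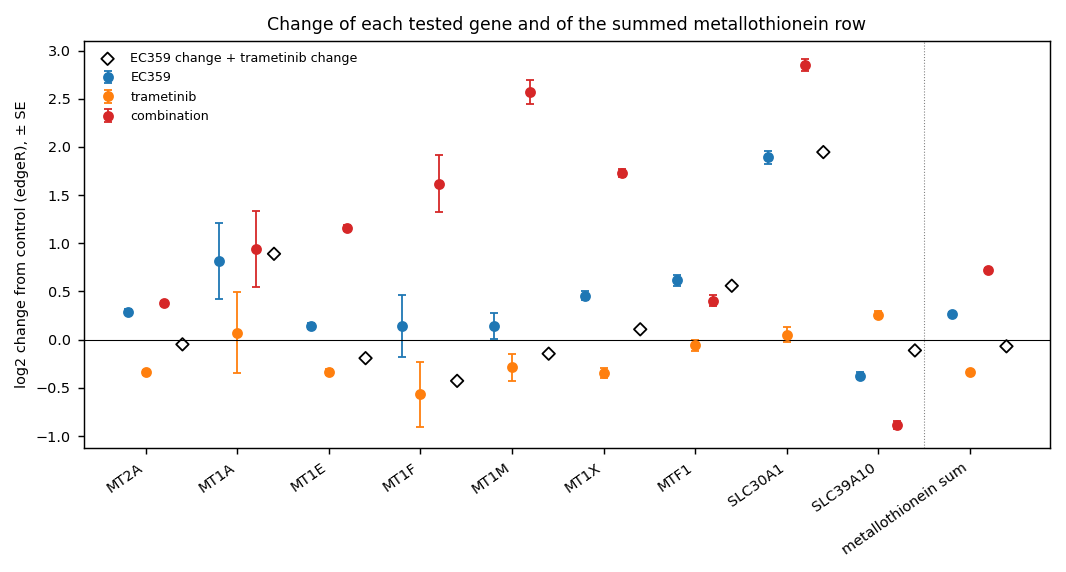
Log2 change from control (y axis, edgeR, ± SE) of the 9 tested genes and of the summed metallothionein row with EC359, trametinib and the combination (filled circles), and the sum of both single-agent log2 changes (open diamonds). The combination circle lies above the diamond for MT2A, MT1E, MT1F, MT1M, MT1X, SLC30A1 and the sum, and below it for SLC39A10.

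Calls over all genes give the background for these values, and since the genes were chosen with the contrasts known, nothing is read from the counts. A call needed a Benjamini-Hochberg adjusted p-value under 0.05 over 14865 tested genes and at least a 2-fold change, and 9 of the 10 genes were tested. With EC359, 1 of the 9 was called higher (SLC30A1) and 0 lower, where 4.19% of all genes tested were called higher and 2.79% lower. With trametinib 0 were called higher and 0 lower (background 0.478% and 0.955%). In the combination 5 were called higher, namely MT1E, MT1F, MT1M, MT1X and SLC30A1, and 0 lower (background 7.27% and 5.87%).

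Without the minimum fold, 5 of the 9 were higher and 1 lower with EC359 (background 30.8% and 30.3%), 1 higher and 3 lower with trametinib (13% and 15.2%), and 8 higher and 1 lower in the combination (35% and 34.7%). The 3 lower with trametinib were MT2A, MT1E and MT1X. Libraries of the combination and control groups did not overlap for 8 of the 9 genes (7 higher and 1 lower), MT1A being the exception, where 36% of all genes tested lay wholly higher and 35.8% wholly lower. The median log2 change of the 9 genes was 0.29 with EC359, -0.29 with trametinib and 1.16 in the combination, against medians over all genes tested of -0.01, 0.00 and -0.01.

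With trametinib added to EC359, 4 of the metallothionein genes were higher by at least 2-fold than with EC359 alone, although MT1E and MT1X were lower with trametinib alone. Between the combination and EC359 alone, MT1E was higher by a log2 change of 1.01 (SE 0.03), MT1F by 1.48 (SE 0.30), MT1M by 2.43 (SE 0.13) and MT1X by 1.27 (SE 0.04), and these 4 were called. None was called lower (background 1.69% higher and 1.55% lower). The call of MT1E stood at the 2-fold line, with log2 changes of 0.98 without EC359 replicate 2 and just under 1 without combination replicate 1. SLC30A1 was 1.94-fold above EC359 alone, and SLC39A10 had a log2 change of -0.52 (SE 0.04). Without the minimum fold, 6 genes were higher and 2 lower (background 24.1% and 25.2%), the latter being SLC39A10 and MTF1.

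Against trametinib alone, the combination was higher for MT1E, MT1F, MT1M, MT1X and SLC30A1 and lower for SLC39A10 at 2-fold, which made 5 and 1 of the 9 genes (background 6.12% and 5.48%). The log2 changes were 1.49 (SE 0.03) for MT1E, 2.18 (SE 0.31) for MT1F, 2.85 (SE 0.13) for MT1M, 2.07 (SE 0.04) for MT1X, 2.79 (SE 0.06) for SLC30A1 and -1.15 (SE 0.04) for SLC39A10. Without the minimum fold, 8 were higher and 1 lower (background 35.3% and 32.9%). These comparisons and those with control share libraries and are not independent of one another.

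The combination was also set against the sum of the log2 changes of the single agents (the interaction, called at an adjusted p-value under 0.05 with no minimum fold). It lay above that sum by 2.71 for MT1M (SE 0.19), 2.04 for MT1F (SE 0.45), 1.62 for MT1X (SE 0.06), 1.35 for MT1E (SE 0.04), 0.90 for SLC30A1 (SE 0.09) and 0.42 for MT2A (SE 0.03), and below it by 0.78 for SLC39A10 (log2 difference -0.78, SE 0.06). These 6 higher and 1 lower of 9 stood beside a background of 14.4% and 15.9%. MT1A (0.05, SE 0.57) and MTF1 (-0.16, SE 0.08) were not called. On the linear scale, adding both single-agent differences to control gave 555 CPM for the summed metallothioneins, where 892 to 934 CPM was measured in the combination libraries. The same sum gave 3.02 CPM for MT1M against 19.4 CPM measured, 31.4 CPM for SLC30A1 against 60.3 CPM, and 82.4 CPM for SLC39A10 against 45.9 CPM.

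Reads shared among the 7 members bear on the single rows but not on their sum, whereas reads shared with rows outside the 7 can move the sum as well. The authors divided reads with several placements, and 40 of the 84 values of the metallothionein members (7 genes in 12 libraries) were not whole numbers. In GENCODE 29 transcripts, no run of 100 bases, the read length, of MT2A, MT1A, MT1E, MT1F, MT1G or MT1M occurred in a transcript of any other gene. Of the 1967 runs of MT1X, 223 (11.3%) also occurred in AC026461.1, which is outside the sum, and the row of MT1L, also outside it, was not whole in 6 of 12 libraries. Reads with mismatches can still be placed on more than one paralog, and their part was not tested.

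Of 10 further metallothionein genes and pseudogenes on a list, 9 were in the files and 4 were tested. MT1L, whose control level per kilobase of exon was 69.5 CPM against 82.3 for MT1X, went the other way, with 29.6 ± 2.25 CPM in control, 21.6 ± 0.498 CPM with EC359, 28.8 ± 3.85 CPM with trametinib and 25.2 ± 0.357 CPM in the combination (SD, n = 3 each). Its log2 change was -0.45 (SE 0.07) with EC359 and -0.23 (SE 0.07) in the combination. MT1H held 1 to 16.5 counts per library and had a log2 change of 1.68 (SE 0.66) with EC359, where the call was lost without control replicate 2, control replicate 3 or EC359 replicate 3, and of 2.12 (SE 0.62) in the combination. The pseudogene MT1JP held 370 counts in combination replicate 2 against 23 and 29 in the other combination libraries, and its log2 change from control of 4.01 became 1.61 without that library, while the call was lost without control replicate 2 or control replicate 3. MT1IP (0 to 24 counts) did not pass the test in any treatment. The rows MT1B, MT1DP, MT3 and MT4 did not pass the filter on low counts, and MT1HL1 had no count.

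Other zinc transporters were listed beside SLC30A1 and SLC39A10, which were themselves chosen with their values known. Of 22 further SLC30 exporters and SLC39 importers in the files, 16 were tested. At 2-fold, 0 of the 16 were called higher and 0 lower with EC359 (background 4.19% and 2.79%). The counts were 0 and 0 with trametinib (0.478% and 0.955%), and 1 and 0 in the combination (7.27% and 5.87%). With EC359 3 of the 16 passed the adjusted p upward and 6 downward (background 30.8% and 30.3%), with trametinib 0 and 4 (13% and 15.2%), and in the combination 7 and 5 (35% and 34.7%), with medians of 0.01, 0.00 and 0.05 on the log2 scale. Among the exporters, SLC30A6, which loads zinc into the Golgi, was 59.8 ± 2.76 CPM in control and 38.0 ± 1.48 CPM in the combination (log2 change -0.65, SE 0.04), and SLC30A5, of the same early secretory route, had a log2 change of -0.39 (SE 0.04). SLC30A7, also of the Golgi, had a log2 change of 0.42 (SE 0.04) with EC359 and 0.16 (SE 0.05) in the combination, and SLC30A9 one of -0.17 (SE 0.04) in the combination. The SLC30A7 change in the combination became 0.02 with scaling by total counts only. SLC30A3 (0.88, SE 0.19) and SLC30A4 (0.41, SE 0.11), exporters chosen after their values were seen, were higher in the combination, which made 3 of the 6 tested exporters higher and 3 lower.

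Among the importers, SLC39A14, which also carries iron, was at 204 ± 4.09 CPM in control, and had a log2 change of 0.33 (SE 0.03) with EC359 and 0.39 (SE 0.03) in the combination. SLC39A1 (log2 change 0.03, SE 0.03) and SLC39A4 (0.03, SE 0.04) did not pass in the combination. SLC39A3 (-0.45, SE 0.06) and SLC39A11 (-0.27, SE 0.08), importers chosen after their values were seen, were lower in the combination, as SLC39A10 was. In all, 4 of these 10 tested importers were higher there and 2 lower (background 35% and 34.7%). SLC39A9 had a log2 change of 0.12 (SE 0.04) in the combination, which became -0.02 with scaling by total counts only. SLC39A7 was the one further transporter past 2-fold in the combination, on 1 library, since combination replicate 1 held 18.4 CPM against 1.13 and 1.38 CPM in the others, and its log2 change of 2.98 (SE 1.05) became 0.52 without it. The call was also lost without any single control library. The row of SLC39A7 covers several alternative sequences of chromosome 6, and its level is uncertain.

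**Figure D5:**
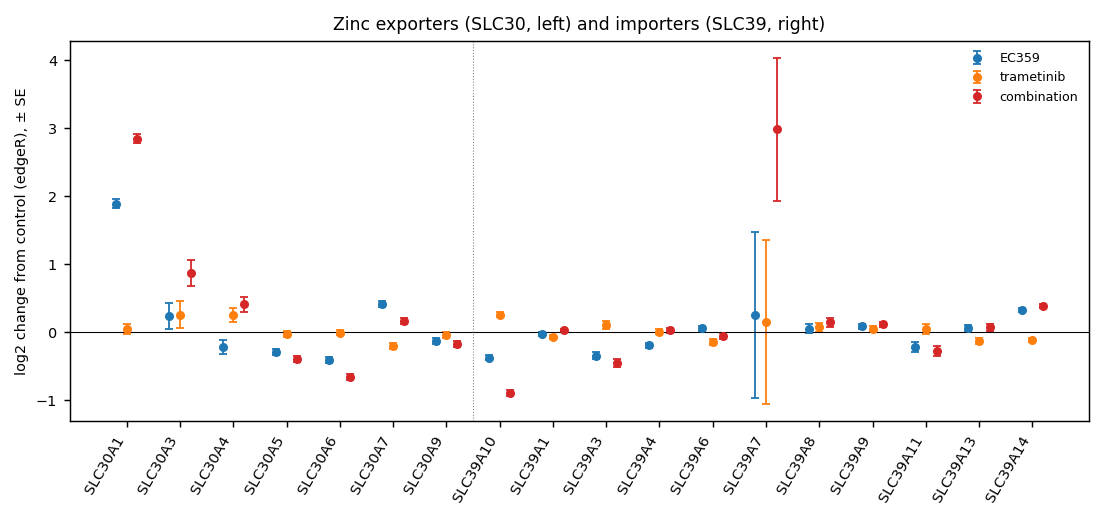
Log2 change from control (y axis, edgeR, ± SE) of the tested zinc exporters (SLC30, left of the dotted line) and importers (SLC39, right) with EC359, trametinib and the combination. SLC30A1 (2.85 in the combination) and SLC39A10 (-0.89) stand at the edges, apart from SLC39A7, whose wide bar rests on 1 library.

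Genes of copper handling, a metal that metallothioneins also bind, were listed too, and all 9 were tested. With EC359 1 of the 9 was higher and 4 lower (background 30.8% and 30.3%), with trametinib 1 and 3 (13% and 15.2%), and in the combination 1 and 4 (35% and 34.7%), with medians of -0.07, -0.04 and -0.10. SCO1, which delivers copper to cytochrome oxidase, was the one past 2-fold, and was lower in the combination (at 2-fold, background 5.87% lower). It was at 36.1 ± 0.393 CPM in control, 22.1 ± 2.16 CPM with EC359, 30.5 ± 0.459 CPM with trametinib and 15.2 ± 0.979 CPM in the combination (log2 change -1.25, SE 0.06). Its partner SCO2 had a log2 change of -0.67 (SE 0.07) in the combination and the copper chaperone ATOX1 one of -0.24 (SE 0.05). The copper importer SLC31A1 (0.01, SE 0.05) and the chaperone COX17 (0.07, SE 0.05) did not pass in the combination.

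Of 6 other genes described as answering to MTF1, 4 were tested, and they did not share a direction. NDRG1, a gene also known for its response to low oxygen, was 41.0 ± 1.01 CPM in control, 345 ± 7.60 CPM with EC359, 27.5 ± 2.22 CPM with trametinib and 169.6 ± 1.86 CPM in the combination. Unlike SLC30A1 it was lower in the combination than with EC359 alone, by a log2 change of -1.02. GCLC, of glutathione synthesis, had log2 changes of 0.46 (SE 0.04) with EC359 and 0.64 (SE 0.04) in the combination, and CSRP1 had -0.09 (SE 0.03) and 0.14 (SE 0.03), whereas the selenoprotein gene SEPW1 had -0.56 (SE 0.04) and -0.25 (SE 0.04). The CSRP1 change in the combination became 0.0004 with scaling by total counts only. By count 2 of the 4 were higher and 2 lower with EC359 (background 30.8% and 30.3%), 0 and 2 with trametinib (13% and 15.2%), and 3 and 1 in the combination (35% and 34.7%).

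Glucocorticoid-responsive genes, listed because glucocorticoids are a known inducer of metallothioneins, were examined as well. Of 6 tested, 4 passed the adjusted p upward and 0 downward with EC359 (background 30.8% and 30.3%), 1 and 0 with trametinib (13% and 15.2%), and 5 and 1 in the combination (35% and 34.7%), with medians of 1.27, 0.19 and 1.65. KLF9 was 1.63 ± 0.139 CPM in control, 11.8 ± 0.434 CPM with EC359 and 11.6 ± 0.593 CPM in the combination, and SGK1 was 15.1 ± 0.861, 47.0 ± 2.24 and 63.8 ± 2.47 CPM in the same groups. TSC22D3 and PER1 had log2 changes of 2.11 (SE 0.08) and 1.11 (SE 0.07) in the combination, and CRISPLD2 of 1.23 (SE 0.21). FKBP5, among the best known targets of the glucocorticoid receptor, had log2 changes of -0.06 (SE 0.04) with EC359 and -0.13 (SE 0.04) in the combination. The interaction was not called for KLF9, TSC22D3, PER1, CRISPLD2 or FKBP5, with differences of -0.22 (SE 0.19), 0.06 (SE 0.12), -0.07 (SE 0.10), 0.72 (SE 0.30) and -0.09 (SE 0.06), and was called for SGK1 at 0.35 (SE 0.08).

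Genes around the metallothionein cluster were examined out to 500 kb on either side. Of 17 such genes, 10 were tested, of which 4 were higher and 5 lower in the combination (background 35% and 34.7%), with a median log2 change of -0.08. HERPUD1, a gene of the endoplasmic reticulum stress response at chr16:56932090-56943881, was 48.5 ± 2.25 CPM in control and 123 ± 1.69 CPM in the combination (log2 change 1.34, SE 0.04). Its change with EC359 alone was 1.20, so that its interaction was 0.14. FAM192A followed with a log2 change of -0.42 (SE 0.04).

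Genes whose pattern over the 12 libraries was most like that of the summed metallothioneins were sought among 9399 genes of at least 10 CPM on average, by Pearson's r of log2(CPM + 1). They were TUFM (r = 0.992), ATAD3B (0.988), PSMC3IP (0.988), FKBP4 (0.987) and PDIA3 (0.986), with log2 changes in the combination of 0.19, 0.40, 0.34, 0.43 and 0.09. For SLC30A1 they were ARID5A (r = 0.999), E2F1 (0.998), PCBP2 (0.997), RB1 (0.997) and RLF (0.997), with changes of 1.86, 1.07, 0.32, 1.95 and 1.89. The 12 points fall into 4 treatment groups and share them, so these values mainly describe the relative spacing of the group means.

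The identity of the cells was checked against markers. KRT7, KRT8, KRT18 and PAX8 were at 976, 1930.5, 1047 and 75.8 CPM in control, EPCAM and WT1 lower at 11.4 and 4.36 CPM, and MUC16 at 0 in 10 of the 12 libraries. Some of these moved with treatment, and in the combination the log2 change from control was 0.68 (SE 0.03) for PAX8, -0.83 (SE 0.16) for WT1, -0.32 (SE 0.02) for KRT18 and -0.07 (SE 0.02) for KRT8, while KRT7 and EPCAM did not pass. The part of these shifts in the results was not tested. Of 8 markers of leukocytes, endothelium and fibroblasts, PTPRC, CD3E and DCN were at 0 in all libraries, PECAM1, VWF and COL3A1 reached at most 17 counts in a library, while CD68 and COL1A1 were at 53.1 and 427 CPM in control. COL1A1 was 226 ± 6.45 CPM with EC359, 518 ± 5.92 CPM with trametinib and 324 ± 10.9 CPM in the combination, and its part in the results was not tested.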

How the data were processed

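Polyadenylated RNA of OVCAR8 cells was sequenced as 100 bp paired, strand-specific reads in 12 libraries of 24790392 to 32467283 counts. The submitters' processing notes name bcl2fastq, HISAT2 and featureCounts with hg38, and the aligner version was not given in the sources used here. The deposited values are estimated counts, which the authors made with featureCounts 1.5.0-p1 (minimum mapping quality 2, exons summed by gene), with reads of several placements or genes divided as fractions and no normalization. Counts were rounded to whole numbers, and 12.4% to 15.1% of genes per library were not whole.

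With R 4.3.3 and edgeR 4.0.16, filterByExpr (minimum count 10, minimum total 15) left 14865 of 26485 genes (6337 were at 0 throughout). TMM factors were 0.947 to 1.06 and the biological coefficient of variation was 3.95%. A single robust quasi-likelihood model (edgeR's quasi-likelihood test) of the 4 groups gave 6 contrasts with Benjamini-Hochberg adjustment over all genes tested, and SE was the absolute log2 change divided by the root of F. The 7 metallothionein rows were also summed and refitted. The upper limit of a count of 0 is 3 counts, and it covers counting error only. The fit was tested on simulated data in which only well-counted genes were changed, so that test does not cover genes of few counts such as MT1A.

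The genes and the lists were chosen with earlier results of these data known. Beside the 10 genes, the text names genes of the lists (other metallothionein rows, other zinc transporters, copper handling, MTF1 response, glucocorticoid response) past both thresholds and up to 4 more per list of highest CPM, the 3 neighbours within 500 kb with the largest combination change (1 is not reported here), and the 5 genes most like the sum and SLC30A1 (pseudocount 1). Alternatives were DESeq2 1.42.0, its size factors, total counts only, other filters, a fit of the compared groups alone, a replicate block, leaving out single libraries, no minimum fold, and other sums. Alternatives for the list genes were added after the data were seen, as were the named SLC30A3, SLC30A4, SLC39A3 and SLC39A11. Promoter windows came from RefSeq (GRCh38.p14) and transcripts from GENCODE 29. No 2 libraries held identical values.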

Additional observations from a re-analysis of the deposited data

Results flagged for a closer look

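The effect of trametinib differed between cells with and without EC359 for 8 of the values described above. This difference between groups is the interaction term of edgeR's quasi-likelihood model. On the log2 scale, the trametinib effect with EC359 minus that without was 2.71 for MT1M, 2.04 for MT1F, 1.62 for MT1X, 1.35 for MT1E, 0.90 for SLC30A1, 0.42 for MT2A and -0.78 for SLC39A10. It was 0.79 for the summed metallothioneins. The genes were chosen with these values known, so the interaction is no independent test of them, and the values are given as a description.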

How the results depend on the processing

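Of 1372 alternative values for 72 results, 0 changed the direction of a called result. Only results called in the main fit could count here, and many of the 72 were not called. Those of the 72 that are counts of called genes could not reverse either. Of their alternatives, 11 fell too far from the main count to be labelled the same. Some of the uncalled changes did turn as single libraries were left out. The log2 change of SLC30A1 with trametinib went from 0.05 to -0.02, and that of MT1F with EC359 from 0.14 to -0.10. For MT1A with trametinib it went from 0.07 to -0.39. The summed metallothioneins kept their direction throughout, with log2 changes from 0.14 to 0.28 with EC359, -0.35 to -0.31 with trametinib and 0.58 to 1.35 in the combination. Left without MT2A, the sum was 1.35 above control and 1.13 above EC359 in the combination and so passed 2-fold, and with total counts only its change against trametinib was 0.90 and so did not. Scaling by total counts moved the median of all genes to -0.15 with EC359, -0.14 in the combination and -0.16 for the combination against trametinib, and 1 gene, SLC39A10 (-1.03, or -0.88 relative to that median), was then called lower in the combination. With no minimum fold, the counts of called genes became 5 higher and 1 lower with EC359, 1 and 3 with trametinib, 8 and 1 in the combination, 2 lower against EC359 and 8 higher against trametinib. As single libraries were left out, the count called higher with EC359 ranged from 1 to 2 (MT1A without control replicate 1) and that called lower with trametinib from 0 to 1 (MT1F without trametinib replicate 1). No pairing of libraries by replicate number was seen (correlations of deviations for 18 same-numbered pairs from -0.0827 to 0.0643, 0 over 0.1). The labels do not say whether same-numbered libraries were prepared together. With the replicate block, the interaction of the sum was 0.79 and the combination against control 0.72, and no count of called genes changed. Depth limits MT1A, MT1F and MT1G, and 3 libraries per group limit every SE. The alternative with only the groups compared gives no interaction, which needs all 4.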
